A study of Mus musculus with 10 samples.

Results

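Neutrophil genes were followed in the colonic crypts of mice treated with dextran sulfate sodium (DSS, a polymer that injures the colonic epithelium). The 8 genes S100a8, S100a9, Retnlg, Csf3r, Cxcr2, Il1b, Hdc and Ly6g, out of 23810 genes in the table of counts, were selected on earlier results of these same libraries, so their difference between DSS and normal crypts and their place among the DSS clusters are given as a description, without a test. The study collected droplet-based single-cell RNA-seq libraries from 8 mouse intestinal organoid cultures and from 2 preparations of colonic crypts, 1 from normal mice (normal colonic crypts) and 1 from DSS treated mice (DSS colonic crypts). Per the methods, colitis was induced in female mice aged 8 weeks, which drank water with DSS and then normal water. The labels name no transgene, strain or further agent for either colonic group, VPA and EPZ6438, which the study also injected into DSS treated mice, are not named for this library, and the number of animals behind each library and the day of sampling are not given in the sources used here. The organoids came from small intestinal crypts and were labelled ENR-organoids (3 libraries), Hyper-organoids (3 libraries, from a medium that includes VPA and EPZ6438) and -VE-organoids (2 libraries, from that medium without these agents), and serve here as epithelial cultures.

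Neutrophils are short-lived granulocytes that mature in the bone marrow and leave the blood for injured or infected tissue, and in DSS colitis they are among the leukocytes that enter the colon wall. During maturation they fill their granules in a fixed order, with azurophil granule proteins made by early precursors, specific granule proteins by later ones and gelatinase granule proteins later still, while mature cells in tissue make cytokines and chemokines. S100a8 and S100a9 encode the subunits of calprotectin, a calcium- and metal-binding protein of the neutrophil cytosol, Retnlg encodes a resistin-like protein, Csf3r and Cxcr2 the receptors for G-CSF and for CXC chemokines, Il1b the cytokine interleukin 1 beta, Hdc the enzyme that makes histamine, and Ly6g a surface protein used as the antibody target that marks mouse neutrophils.

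Promoter windows are shown for 4 members, the 3 that had 0 UMIs in normal colonic crypts and Ly6g, whose UMIs lay elsewhere, so that the contrast in their expression can be set beside their sequence. The members lie on different chromosomes except for S100a8 (GRCm38, chromosome 3, 90668978 to 90670035, plus strand) with S100a9 (chromosome 3, 90692632 to 90695721, minus strand) and Il1b (chromosome 2, 129364570 to 129371139, minus strand) with Hdc (chromosome 2, 126593667 to 126619299, minus strand). Cxcr2 lies on chromosome 1 from 74153989 to 74161246, Csf3r on chromosome 4 from 126024550 to 126044440, Ly6g on chromosome 15 from 75155240 to 75159126 and Retnlg on chromosome 16 from 48872621 to 48874496, all on the plus strand. The windows come from RefSeq on GRCm38.p6, in which all 8 members were matched, run from 250 bases before to 50 bases after the annotated start, and are printed 5′ to 3′ on the strand of the gene. Capitals mark matches, on either strand, to the TATA box letters TATAAA, to GAGGAA (the core bound by PU.1) or to TTNNGNAA (the pattern of C/EBP factors), and overlapping matches run together.
S100a8 (chr3:90668821-90669120, plus strand): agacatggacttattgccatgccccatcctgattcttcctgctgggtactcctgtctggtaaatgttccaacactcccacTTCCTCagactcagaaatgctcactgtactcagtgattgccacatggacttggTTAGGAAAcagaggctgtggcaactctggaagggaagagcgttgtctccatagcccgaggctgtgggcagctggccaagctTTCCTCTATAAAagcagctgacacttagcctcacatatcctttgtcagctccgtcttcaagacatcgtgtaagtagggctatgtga
S100a9 (chr3:90695672-90695971, minus strand): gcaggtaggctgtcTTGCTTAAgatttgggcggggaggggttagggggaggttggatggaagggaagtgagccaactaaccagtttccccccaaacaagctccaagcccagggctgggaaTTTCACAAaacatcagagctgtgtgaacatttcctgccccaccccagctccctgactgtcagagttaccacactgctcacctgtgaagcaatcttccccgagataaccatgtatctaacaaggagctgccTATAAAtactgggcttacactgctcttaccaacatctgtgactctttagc
Retnlg (chr16:48872358-48872657, plus strand): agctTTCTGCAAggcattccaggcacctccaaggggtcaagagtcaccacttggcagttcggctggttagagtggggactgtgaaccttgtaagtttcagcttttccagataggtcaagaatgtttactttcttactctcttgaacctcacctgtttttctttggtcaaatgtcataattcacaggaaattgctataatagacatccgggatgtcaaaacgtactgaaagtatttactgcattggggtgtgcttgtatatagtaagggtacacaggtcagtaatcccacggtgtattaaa
Ly6g (chr15:75155011-75155310, plus strand): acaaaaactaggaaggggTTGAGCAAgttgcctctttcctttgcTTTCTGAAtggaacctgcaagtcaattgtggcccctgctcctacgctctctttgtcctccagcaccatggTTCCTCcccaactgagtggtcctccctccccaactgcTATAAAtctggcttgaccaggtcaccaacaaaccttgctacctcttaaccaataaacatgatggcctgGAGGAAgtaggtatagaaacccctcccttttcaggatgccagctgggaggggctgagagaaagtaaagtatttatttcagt

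Of 32851 promoter windows in the table, 13.6% held TATAAA, 28.3% held GAGGAA and 40.7% held TTNNGNAA. Among the 8 members, taking the window listed first for Ly6g, which has another start in RefSeq, 4 held TATAAA (S100a8, S100a9, Il1b and Ly6g), 4 held GAGGAA (S100a8, Csf3r, Cxcr2 and Ly6g) and 5 held TTNNGNAA (S100a8, S100a9, Retnlg, Il1b and Ly6g). The TATAAA match began at position -30 from the start in S100a8, -31 in Il1b, -99 in Ly6g and 1 in S100a9, while in the Retnlg window TTNNGNAA was the single match. The windows of S100a8 and of Ly6g each held all 3 patterns. These are matches of letters, and binding was not measured.

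The DSS library held 1933 cells that the authors kept, with 32397122 UMIs (unique molecular identifiers, 1 for each captured transcript molecule) and a median of 16051 per cell. The normal library held 1132 kept cells, 19906845 UMIs and a median of 18374.5 per cell. Of the barcodes called in the library matrices, 42 occurred in both colonic libraries, 2 of them among the kept cells of both, and 0 of these DSS cells held 3 or more members. The labelled tissue carried its markers, since all 11 epithelial genes of a fixed list were detected in both libraries, at a summed 23587 CPM (UMIs scaled to a total of 1000000 for the cells counted, with no length correction since each molecule gives 1 UMI) in DSS and 25082 CPM in normal crypts. Each colonic group is 1 library, so no difference between them has a replicate check, and the intervals below (95%, exact Poisson for UMIs and CPM, exact binomial or Clopper-Pearson for shares) cover counting error only.

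In the comparison of DSS with normal crypts, calprotectin and Retnlg transcripts were abundant in DSS and absent from the UMIs of normal crypts. S100a8 had 27607 UMIs in the DSS library, which is 852 CPM (842 to 862), and 0 in the normal library, so it was at least 5654.5-fold higher when the normal level is set to the limit that a count of 0 allows (3 counts per library). S100a9 had 44974 UMIs (1388 CPM, 1375 to 1401) against 0 and was at least 9212-fold higher. Retnlg had 9962 UMIs (307 CPM, 301 to 314) against 0 and was at least 2040.4-fold higher. A count of 0 among 19906845 UMIs allows up to 0.151 CPM by that limit. The sum over a library joins the number of cells that carry a gene and the amount in each of them.

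The receptors were far less abundant. Csf3r, through which G-CSF drives the production of neutrophils, had 200 UMIs in DSS and 1 in normal crypts, a ratio of 123 with a counting interval from 21.8 to 4878. Cxcr2, the receptor that guides neutrophils toward CXCL1 and its relatives, had 80 UMIs against 9, a ratio of 5.46 (2.74 to 12.4). Cxcr2 thus showed the smaller ratio of the receptors.

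Il1b had 3084 UMIs in DSS (95.2 CPM) and 2 in normal crypts, a ratio of 948 (262 to 7827). Hdc had 493 UMIs (15.2 CPM) against 4, a ratio of 75.7 (29.4 to 279). Ly6g differed least, with 1523 UMIs (47.0 CPM, 44.7 to 49.4) against 536 (26.9 CPM, 24.7 to 29.3), a ratio of 1.75 (1.58 to 1.93) in the kept cells. Over all barcodes of the libraries, a setting chosen after seeing the data, its ratio was 1.06 (0.998 to 1.13), at 49.4 and 46.4 CPM. Ptprc (CD45), the general leukocyte gene, had 939 UMIs in DSS and 542 in normal crypts, at 29.0 and 27.2 CPM, and its ratio of 1.06 had an interval from 0.957 to 1.19. On the scale of log2(CPM + 1), with genes of at least 10 UMIs in the colonic libraries together, 7 of the 8 members were at least 2-fold higher in DSS, with Ly6g the exception, and their median log2 difference was 5.10. With 10 CPM added in place of 1, Csf3r (log2 difference 0.69) and Cxcr2 (0.25) were under 2-fold as well. Among the 14690 genes of that filter 3.01% were at least 2-fold higher and 1.29% at least 2-fold lower, with a median of 0.04, and since the members were chosen from this contrast nothing is read from the comparison.

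**Figure D1:**
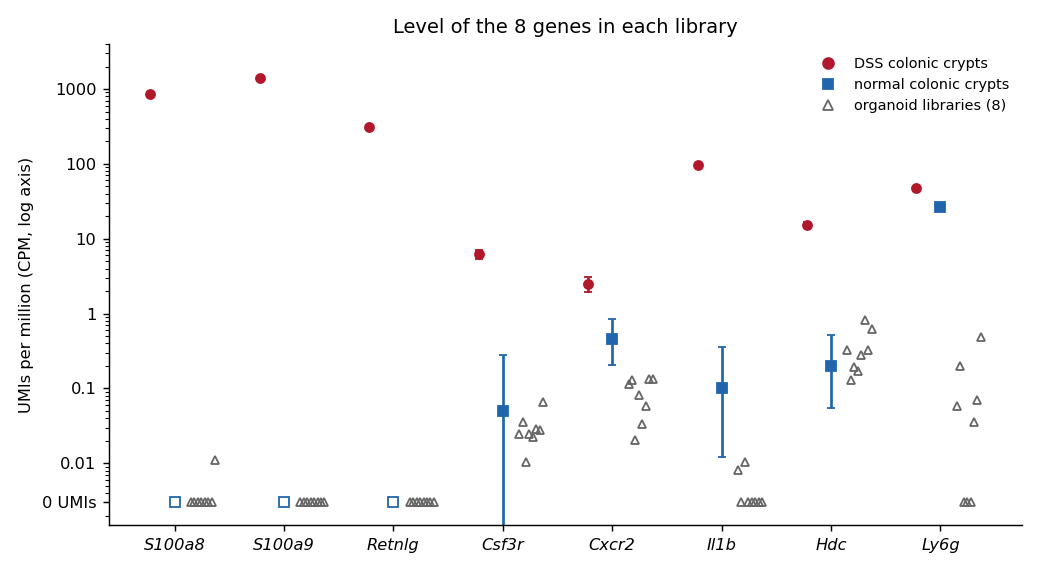
CPM (scaled UMIs, log axis) of the 8 genes in the DSS library (red circles), the normal library (blue squares) and the 8 organoid libraries (triangles), with exact Poisson 95% intervals for the colonic libraries and libraries without a UMI on the line marked 0 UMIs. S100a8, S100a9 and Retnlg stood at 852, 1388 and 307 CPM in DSS crypts and at 0 UMIs in normal crypts, whereas Ly6g was at 47.0 and 26.9 CPM.

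The organoid libraries gave the background of the same genes in epithelial cultures. S100a9 and Retnlg had 0 UMIs in each of the 8 libraries, and S100a8 had 1 UMI in Hyper-organoids replicate 3 and 0 in the other 7. Il1b had 0 or 1 UMI and Csf3r 1 to 6 UMIs per library. Hdc was present at low level in every organoid library, with 115, 47 and 56 UMIs in the Hyper-organoids, 40 and 22 for -VE-organoids, and 19, 21 and 25 for ENR-organoids (0.129 to 0.830 CPM), and 141 of its 345 UMIs lay in the 664 cells that the authors annotate as EE. Ly6g had 5, 10 and 44 UMIs in the Hyper-organoids, 7 and 34 for -VE-organoids, and 0 in each of the 3 ENR-organoid libraries. Of these 100 Ly6g UMIs, 58 lay in the 70 cells that the authors annotate as RSC, 0.316% of the organoid cells. In RSC cells there were 4 UMIs in 8 cells and 25 in 17 cells of -VE-organoids, and 0 in 5, 2 in 14 and 27 in 26 cells of Hyper-organoids. Neutrophil transcripts other than Ly6g, Hdc and Cxcr2 were thus at or near 0 in the cultures. Cxcr2 was found in every organoid library, with 2 to 22 UMIs, at or under 0.134 CPM.

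Within the DSS library the member UMIs were concentrated in a cluster of 66 cells. The authors' annotation divides the DSS cells among 25 clusters, numbered without cell type names, and cluster 15, which holds no cell of the normal library, carried 71744 of the 87923 member UMIs (81.6%, 81.3 to 81.9). Its cells are 3.41% of the kept DSS cells. The methods give a filter of at least 1500 genes for 8 single-cell samples, while 10 libraries were deposited. Whether it covered the colonic cells is not stated, and kept DSS cells reached down to 501 genes. Among the 1400 DSS cells with at least 1500 genes, cluster 15 kept 3 cells and held 40.5% of the member UMIs. The summed members were at 762.8 CPM in these 1400 cells against 2714 CPM over all kept cells. For the same 8 samples the methods describe clustering on highly variable genes, which are not listed and may include the members. The concentration therefore describes the clusters and is no test. The 10 genes that lead cluster 15 by fold were Retnlg, S100a9, S100a8, Ifitm1, G0s2, Cxcl2, Clec4e, Asprv1, Il1b and Hp, and 20 of 20 neutrophil markers of a list without the members were detected there, G0s2 and Clec4e among them. Detection alone does not set cluster 15 apart, since 17 of the 20 were detected in cluster 16, 16 in cluster 22 and 15 in clusters 7 and 21. The list summed to 23927 CPM in cluster 15, 4878 CPM in cluster 22 and 493 CPM in DSS cells outside both. On this level cluster 15 is called neutrophil-like below. Its cells were shallow, with a median of 3291 UMIs. The macrophage list summed to 247 CPM in it against 106 CPM in the whole library, with 4 of 11 genes detected (Ly6c2, Cd68, Csf1r and Adgre1) and C1qa, C1qb and C1qc at 0, and the epithelial list to 1521 CPM against 23587 CPM.

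Calprotectin dominated these cells. S100a9 ranged from 29 to 2698 UMIs per cell with a median of 421, and S100a8 from 12 to 1629 with a median of 243, so each of the 66 cells held both subunits. Together the 8 members made up 29.1% of the UMIs of the cluster. Retnlg had a median of 101.5 UMIs and was found in 64 of the 66 cells. For each 100 UMIs of S100a9 the cluster held 58.8 of S100a8 (57.8 to 59.8) and 25.6 of Retnlg.

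The receptors were present in most of the neutrophil-like cells at a few UMIs. Csf3r was detected in 59 of 66 cells (median 3, highest 10) and Cxcr2 in 43 (median 1, highest 5). Cluster 15 held 180 of the 200 Csf3r UMIs and 70 of the 80 Cxcr2 UMIs of the DSS library. Il1b was detected in 63 cells with a median of 26 UMIs and a highest value of 128, and Hdc in 63 cells with a median of 6. Ly6g was the member seen least often there, with 69 UMIs in 28 cells (42.4%, 30.3 to 55.2) and a median of 0. By number of members per cell, 15 of the 66 cells held all 8, 31 held 7, 15 held 6 and 5 held 5.

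**Figure D2:**
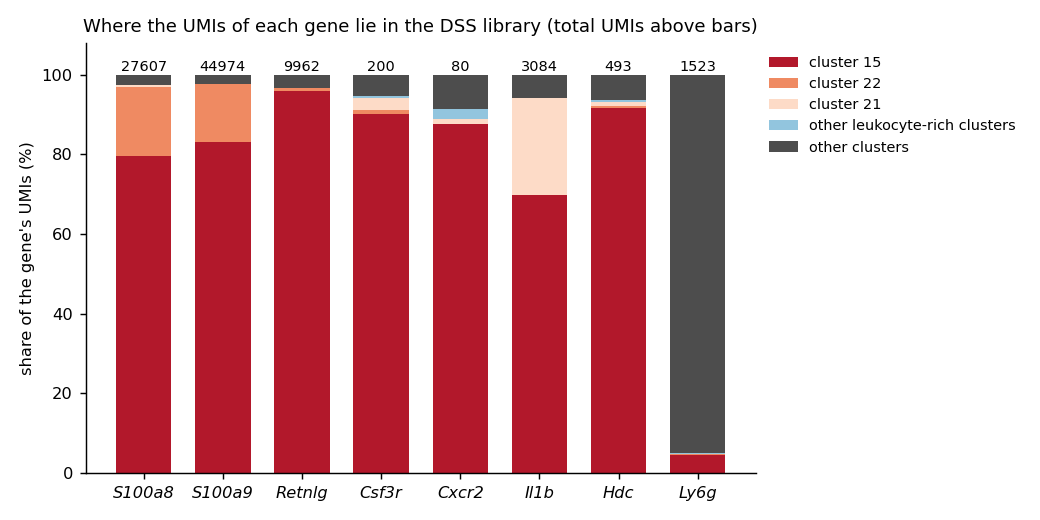
Share of each gene's UMIs (%) in the DSS library by cluster, with the gene's total UMIs above each bar. Cluster 15 held between 69.8% (Il1b) and 95.9% (Retnlg) of 7 genes but 4.53% of Ly6g, cluster 22 added 17.5% of S100a8 and 14.6% of S100a9, and cluster 21 held 24.2% of Il1b.

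Another group of calprotectin-rich cells lacked most of the other members. Cluster 22, 21 cells that all come from the DSS library, held 4819 S100a8 UMIs (17.5% of the gene) and 6554 S100a9 UMIs (14.6%), but 76 Retnlg, 2 Csf3r and 2 Hdc UMIs, and 0 of Il1b and Cxcr2. For each 100 UMIs of S100a9 it held 1.16 of Retnlg (0.912 to 1.45), against 25.6 in cluster 15. Its leading genes were Camp, Ngp, Chil3, Ltf and Lcn2, which encode specific granule proteins or related products of maturing neutrophils, followed by S100a8, S100a9, Lyz2, Wfdc21 and Hp, and it is called by its number here.

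The 21 cells of cluster 22 fell into sets of very different depth. A pair of cells had 12479 and 14740 UMIs, and the other 19 had between 1123 and 2542. The pair held 9742 of the 11457 member UMIs of the cluster (85.0%), with 1847 and 2187 S100a8 UMIs and 2164 and 3476 S100a9 UMIs. The pair also held 872 and 1246 UMIs of Ngp, a specific granule protein, and 44 and 5 UMIs summed over the 11 epithelial markers. In the other 19 cells the same transcripts stood at much lower and even numbers, from 28 to 56 UMIs for S100a8, from 33 to 71 for S100a9 and from 12 to 38 for Ngp. These 19 cells held epithelial markers at 32477 CPM against 1800.2 CPM in the pair and 23766 CPM in DSS cells outside clusters 15 and 22. The 19 cells had a median of 12.1% mitochondrial UMIs, against 3.45% and 1.60% in the pair.

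Per cell, the ratios among neutrophil transcripts rest on few UMIs in the shallow cells, and their spread was not separated from counting error. Per 100 S100a9 UMIs, S100a8 ranged from 59.6 to 113 with a median of 89.3 in the 19 shallow cells and was 85.4 and 62.9 in the deep ones. Ngp ranged from 28 to 76.3 with a median of 57.4 against 40.3 and 35.8. Pooled over the UMIs of each set, the values per 100 S100a9 UMIs were 85.9 (78.0 to 94.6, counting error only) in the shallow and 71.5 (68.7 to 74.5) in the deep cells for S100a8, 53.5 and 37.6 for Ngp and 12.1 and 5.85 for Lyz2, lower in the deep cells for each of these genes. Pooled Ltf went the other way, at 6.46 (4.87 to 8.40) in the shallow and 7.34 (6.63 to 8.11) in the deep cells. The values of both deep cells lay inside the range of the shallow cells for S100a8, Ngp and Ltf (0 to 11.9 against 10.7 and 5.26), with S100a8 and Ngp under the shallow median. For Lyz2 (2.56 to 25.9) 1 deep cell was inside at 11.3 and the other below at 2.45. Among the 212 DSS cells of the same depth outside clusters 15 and 22, 0 reached the 28 S100a8 UMIs of the lowest of these 19 cells, 24 (11.3%) held any S100a8 UMI, and the highest held 22. Clusters are drawn on expression, so leaving out clusters 15 and 22 can by itself remove shallow cells rich in S100a8 from this set. What joins granule and epithelial transcripts in the 19 barcodes was not tested.

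Granule transcripts were also unevenly spread inside cluster 15. The 5 cells with the most UMIs over the 10 specific and gelatinase granule genes held 2154 of the cluster's 2585 Ngp UMIs, 680 of its 700 Camp UMIs and 329 of its 337 Ltf UMIs. These 5 cells were deep, with 5281 to 12235 UMIs, and high in S100a8 (771 to 1629 UMIs per cell). Their Il1b numbered 31 UMIs in 2 cells with a median of 0, whereas each of the other 61 cells held Il1b, with a median of 27, which corresponds to 678 CPM against 10559.9 CPM. The pair of deep cells of cluster 22, also rich in granule transcripts, held 0 Il1b UMIs. The 5 cells were chosen for their granule UMIs after the values were seen.

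**Figure D3:**
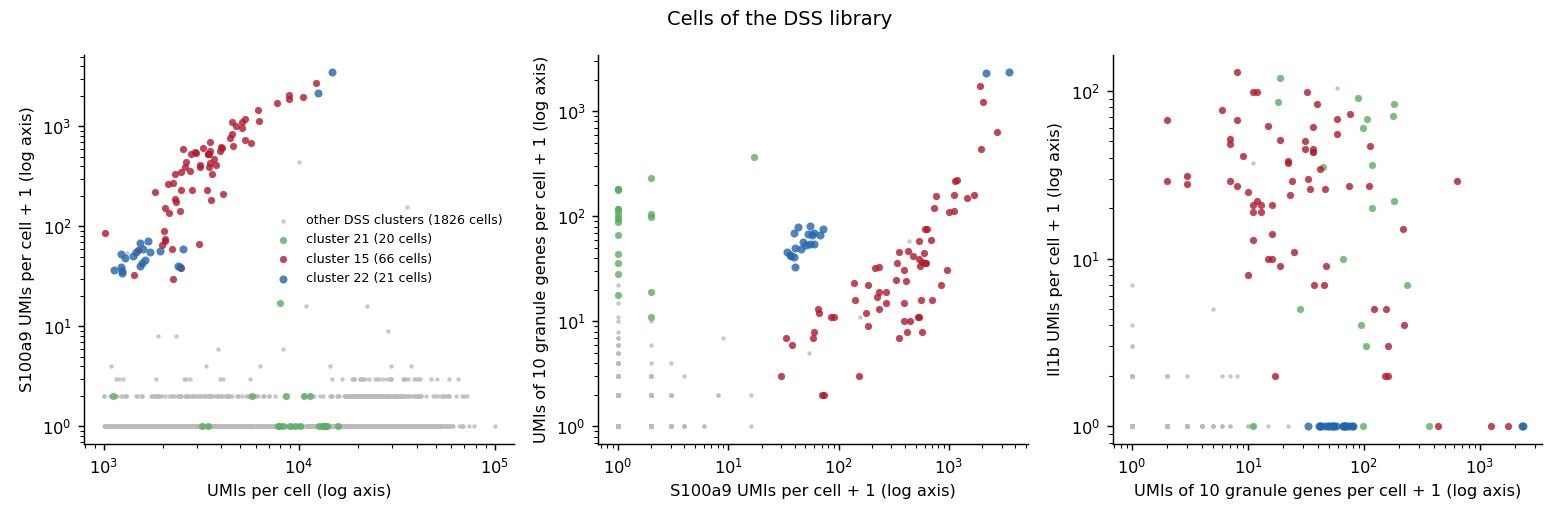
Cells of the DSS library by UMIs per cell and S100a9 UMIs (left), S100a9 and granule gene UMIs (middle) and granule gene and Il1b UMIs (right), all on log axes with 1 added to each gene count. Cluster 22 (blue) splits into 2 deep cells and 19 shallow ones with 33 to 71 S100a9 UMIs, and 3 of the 5 cells of cluster 15 with the most granule UMIs have 0 Il1b UMIs.

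Il1b was also found elsewhere. Cluster 21, with 20 DSS cells and 1 normal cell, is macrophage-like by the fixed list (11 of 11 markers detected, with C1qa, C1qb, C1qc and Ms4a7 among its leading genes), and held 747 of the 3084 Il1b UMIs (24.2%) in 17 of its DSS cells, with a median of 27.5 UMIs per cell. In CPM Il1b stood at 8727 in the neutrophil-like cluster and 3987 in cluster 21. Calprotectin was scarce there, with 100 S100a8 UMIs in 4 cells and 21 S100a9 UMIs in 6 cells, and Retnlg had 1 UMI. The 2 Il1b UMIs of the normal library came from 1 cell, its only cell in cluster 21.

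Hdc, which in the gut is also known from mast cells and enterochromaffin-like cells, lay in cluster 15 by 452 of its 493 UMIs (91.7%). In cluster 23, led by the mast cell proteases Mcpt1 and Mcpt2 and by Cpa3, 1 of 7 DSS cells held 7 Hdc UMIs. Cluster 16, led by the endocrine genes Chgb and Chga, held 10 Hdc UMIs in 2 of 43 cells, 9 of them in a barcode that also held 221 S100a8, 436 S100a9 and 191 Retnlg UMIs. Most histamine-enzyme transcripts in this library were thus in the neutrophil-like cells, which held 1833 CPM of Hdc.

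Of all member UMIs in the DSS library, 30986 (35.2%, 34.9 to 35.6) lay in cells without a Ptprc UMI (59.6% in cells with fewer than 2). By gene the share was 35.3% for S100a8, 35.5% for S100a9, 29.0% for Retnlg, 27.5% for Csf3r, 31.2% for Cxcr2, 21.4% for Il1b and 33.7% for Hdc, and 95.7% (94.5 to 96.6) for Ly6g. Of these 30986 UMIs, 21246 (68.6%) belonged to 21 cells of cluster 15 and 7405 (23.9%) to 20 cells of cluster 22. Of the 7405, 5690 lay in the deep cell with 14740 UMIs and 1715 in the 19 shallow cells. The remaining clusters that are not rich in leukocytes contributed 2303 (7.43%), of which 1431 were Ly6g. Apart from Ly6g, the transcripts without Ptprc were therefore mostly in the same clusters as those with it.

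The cells of cluster 15 without a Ptprc UMI resembled those with it. The 21 cells without Ptprc had a median of 3222 UMIs, 251 S100a8, 428 S100a9 and 21 Il1b UMIs, and the 45 cells with it had medians of 3360, 228, 393 and 28. Ptprc averaged 1.44 UMIs per cell in the cluster. Over the 10 pan-leukocyte genes of the fixed list (Ptprc with Lcp1, Coro1a, Laptm5, Itgb2, Cd52, Tyrobp, Srgn, Arhgdib and Rac2), the 21 cells held between 17 and 161 UMIs with a median of 78, the same median as in the 45 cells. When cells are called leukocytes by any of these 10 genes instead of Ptprc alone, 2.36% (2.26 to 2.46) of the member UMIs remained outside. This rule takes in 743 of the 1933 cells, among them 281 of the 1467 cells (19.2%) of the clusters that are neither leukocyte-rich nor cluster 22, where 30 held Ptprc. For S100a8, S100a9, Retnlg and Il1b the share was 1.22%, 0.972%, 0.663% and 0.713%. For Ly6g it was 78.7% (76.5 to 80.7). In cluster 15, 0 of 66 cells lacked all 10 genes, and in cluster 22, 3 of 21 did. Cells of cluster 15 held 17 to 230 UMIs of these genes. In cluster 22 the deep pair held 133 and 150 and the 19 shallow cells 0 to 5.

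**Figure D4:**
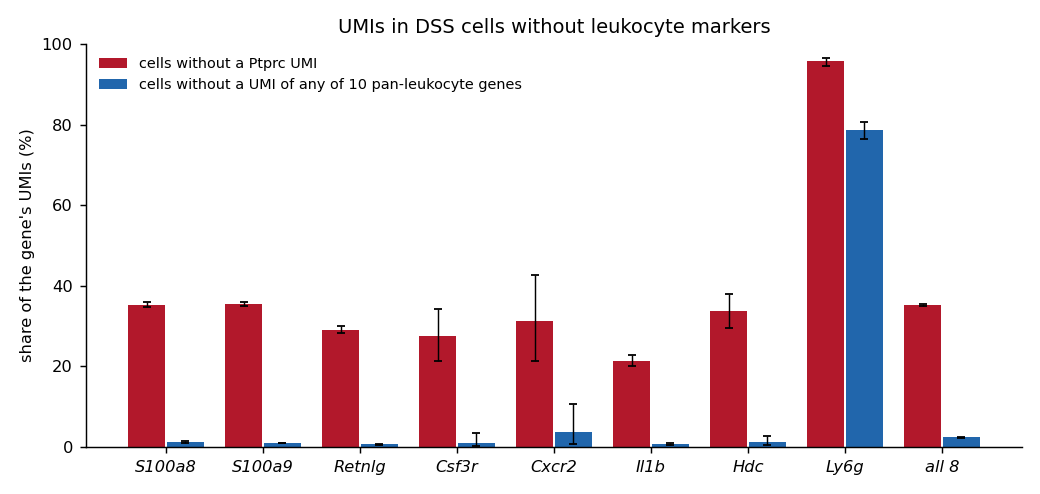
Share of each gene's UMIs (%) in DSS cells without a Ptprc UMI (red) and in DSS cells without a UMI of any of 10 pan-leukocyte genes (blue), with exact binomial 95% intervals. For the 8 genes summed the share is 35.2% by Ptprc and 2.36% by the 10 genes, and for Ly6g it is 95.7% and 78.7%.

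In the DSS library 115 of 1933 cells (5.95%, 4.94 to 7.10) held UMIs of at least 3 members, 66 of them in cluster 15, 12 in cluster 22, 4 in cluster 21 and 33 in other clusters, and under the filter of 1500 genes 33 cells did. In the normal library 0 of 1132 cells did (an exact upper bound of 0.325%), and 0 cells did in each of the 8 organoid libraries. These counts were not matched for depth. The 33 DSS cells in other clusters had a median of 18091 UMIs and a median of 7 member UMIs. In the other leukocyte-rich clusters, at a median of 3546 UMIs, 0 of 359 DSS cells held at least 3 members. Without Ly6g, a setting chosen after seeing the data, 99 DSS cells held at least 3 members. Outside clusters 15, 21 and 22, 3 cells held 411 of 742 S100a8 UMIs, 643 of 1075 S100a9 UMIs, 236 of 334 Retnlg UMIs and 143 of 185 Il1b UMIs. Of the other members the same cells held 5 of 12 Csf3r, 2 of 9 Cxcr2, 13 of 34 Hdc and 11 of 1450 Ly6g UMIs. These were a cell of the endocrine cluster 16 (221 S100a8, 436 S100a9, 191 Retnlg and 103 Il1b UMIs, with 1 of Ptprc) and 2 cells of cluster 7. In the other 1823 cells S100a8 reached at most 13 UMIs per cell and was found in 242. No doublet caller was run, and whether these 3 barcodes hold more than 1 cell was not tested.

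Calprotectin UMIs were also found in a small share of the cells of other DSS clusters. After each cell was thinned to 1000 UMIs, which left out 0 cells, S100a8 was found in 66 of 66 cells of cluster 15, in 21 of 21 cells of cluster 22, in 5 of 159 cells (3.14%, 1.03 to 7.19) of cluster 0, whose leading genes include Cd3g, Cd3e and Klrd1 and which is T and NK-like, and in 31 of 1467 cells (2.11%, 1.44 to 2.99) of the clusters that are neither leukocyte-rich nor cluster 22. Before thinning the last share was 14.2% at a median of 21232 UMIs per cell, and that of cluster 0 was 13.2% at 3924 UMIs. S100a9 at that depth was in 3 of 159 cells (1.89%) of cluster 0 and in 50 of 1467 cells (3.41%) of the other clusters, so the order of these groups was not the same for both subunits. T cells should lack both genes, and the source of these UMIs was not tested. In the normal library 0 cells held S100a8 with or without thinning.

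Most Ly6g UMIs lay outside the neutrophil-like cluster. In the DSS library cluster 7 (139 cells, led by Tgm3, Atp12a, Aqp8, Saa1 and Car4) held 779 of the 1523 Ly6g UMIs in 105 cells, which is 357 CPM (333 to 383), and Ly6g itself was among its 10 leading genes. Cluster 9 (led by Ido1 and Clu) held 418 UMIs at 164 CPM and cluster 10 held 84. The neutrophil-like cluster held 69 UMIs, which is 280 CPM (218 to 354) of its 246586 UMIs. Of the 309 DSS cells with Ly6g, 288 also held Epcam, the epithelial adhesion gene, 24 held Ptprc, and 169 held no other member. Of all DSS cells 1681 of 1933 (87.0%) held Epcam, and an Epcam UMI alone does not mark an epithelial cell here, since 98 of 159 cells of the T and NK-like cluster 0 and 27 of 66 cells of cluster 15 held Epcam too.

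In the normal library cluster 3 (274 cells) held 312 of 536 UMIs, cluster 12 (93 cells) held 148 and cluster 7 (8 cells) held 57. All 149 normal cells with Ly6g held Epcam, against 967 of all 1132 normal cells (85.4%), and 3 held Ptprc. Cluster 7 stood at 481 CPM (364 to 623) in normal and 357 CPM in DSS crypts (intervals overlapping). Outside clusters 15 and 22 the ratio of Ly6g between DSS and normal crypts was 1.68 (1.52 to 1.86), against 1.75 with them and 1.06 over all barcodes. Ly6g belongs to a family of similar genes on chromosome 15, and how the counting shared reads among them was not tested. Of its relatives, Ly6a was at 580 CPM in DSS and 1170.25 CPM in normal crypts and Ly6d at 29.0 and 2.21 CPM, and 1 of 6 relatives was at least 2-fold higher and 1 at least 2-fold lower.

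**Figure D5:**
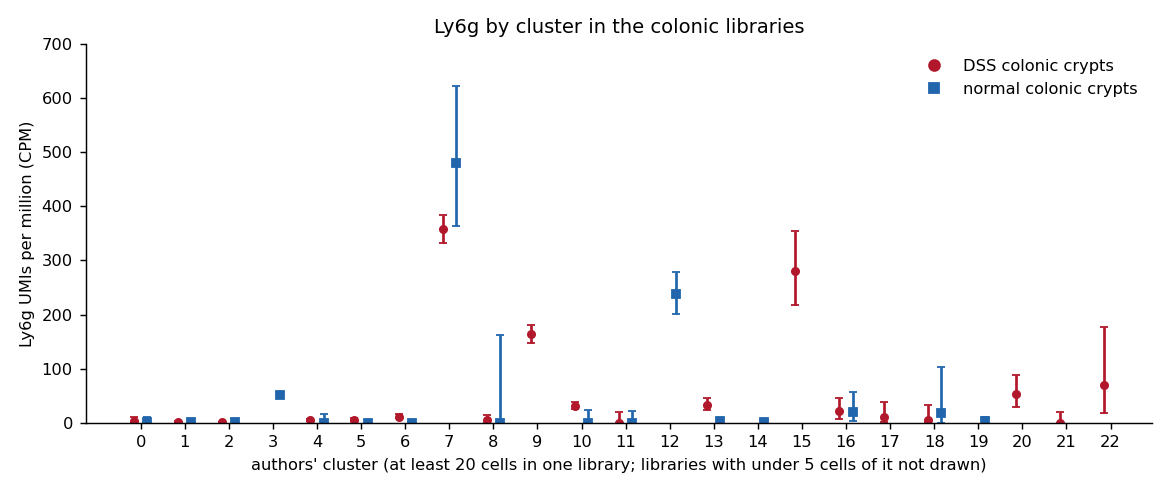
Ly6g in CPM by the authors' cluster in the DSS (red circles) and normal (blue squares) library with exact Poisson 95% intervals, for clusters of at least 20 cells in either library, leaving out a library with under 5 cells of the cluster. Cluster 7 is highest in both libraries (357 and 481 CPM), and cluster 15, which occurs in DSS only, is at 280 CPM.

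The genes around the members were examined with lists set from textbook knowledge, but with earlier results of these data known. Their counts are a description, beside the 3.01% of all 14690 genes at least 2-fold higher and the 1.29% at least 2-fold lower. All 10 specific and gelatinase granule genes were at least 2-fold higher in DSS, with a median log2 difference of 4.61, and Ngp (161 CPM), Lyz2 (92.2), Camp (64.2) and Lcn2 (60.0) were the most abundant, at 0 UMIs in normal crypts for Ngp and Camp, 2 for Lyz2 and 9 for Lcn2. Lyz2, lysozyme 2, is shared with macrophages, and 1789 of its 2986 UMIs lay in cluster 21. The list summed to 26919.6 CPM in cluster 15, where the 5 cells named above held 64.5% of its UMIs, and to 98914 CPM in cluster 22, with 171204 CPM in the pair of deep cells and 35010.2 CPM in the other 19. Mmp8 and Mmp9, proteases stored late in maturation, went the other way, with 424 and 381 UMIs in cluster 15 against 0 and 5 in cluster 22. Azurophil granule transcripts were scarce, since Mpo (myeloperoxidase) had 0 UMIs in both libraries, Elane and Ctsg had 3 each and Prtn3 had 20 in DSS, and of the 5 genes 1 passed the filter and 0 were 2-fold apart.

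Of 14 receptors for chemoattractants and cytokines, including Csf3r and Cxcr2, which were chosen from this contrast, 10 were at least 2-fold higher in DSS. Il1r2, a decoy receptor for interleukin 1, had 733 UMIs against 3, with 625 of them in cluster 15, and C5ar1, the receptor for complement C5a, had 643 against 0, with 574 there. Fpr1, which senses formylated bacterial peptides, had 202 against 0, with 197 there. Scaled to CPM, Csf2ra and Tnfrsf1b were under 2-fold apart. Their unscaled counts were 585 and 487 UMIs in the larger DSS library against 290 and 246 in the normal library. The 14 receptors had a median log2 difference of 1.76.

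Among 12 ligands that recruit or raise neutrophils, 9 passed the filter and 6 were at least 2-fold higher, with a median of 1.60. Cxcl2, a ligand of Cxcr2, had 9879 UMIs against 150 and stood at 28355 CPM in the neutrophil-like cluster, where 6992 of the UMIs lay. Its relative Cxcl1 was at 61.7 and 51.0 CPM and was not called. Il17a, a cytokine of T cells that raises neutrophil production, had 333 UMIs against 0, with 0 in clusters 15, 21 and 22. Tnf was at 58.0 against 18.4 CPM, C3 was at 34.2 against 20.5 CPM, Il17f had 0 UMIs in DSS, and Csf3, which encodes G-CSF, had 7 against 2 UMIs.

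Of 10 genes of the interleukin 1 family, 4 were at least 2-fold higher (Il1a, Il1r2, Nlrp3, the sensor of the inflammasome, and Il1b, which was chosen from this contrast) and the median was 0.92. The more abundant Il18 and Casp1 were at 198 and 155 CPM in DSS against 104 and 139 CPM, and Il1rn, the receptor antagonist, at 77.8 against 40.7 CPM. The resistin family diverged, since Retnlb, the goblet cell member, was at 124 CPM in DSS against 1394 CPM in normal crypts while Retnlg, chosen from this contrast, had 9962 UMIs against 0, Retn had 4 UMIs against 24, and Retnla had 0 against 7. Of the calprotectin receptors and S100 relatives, 1 of 7 that passed the filter was called (S100a4, 6.05 against 1.96 CPM), and Tlr4, a receptor for calprotectin, was at 6.91 and 6.58 CPM. In the histamine list Hdc, itself chosen from this contrast, was the single gene of 5 called, and the receptor Hrh1 was at 4.44 and 3.77 CPM.

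By the fixed cell type lists, 17 of 20 neutrophil markers, 9 of 11 monocyte and macrophage markers and 6 of 6 B and plasma cell markers were at least 2-fold higher in DSS, while 0 of 10 T and NK markers, 0 of 11 epithelial markers and 2 of 10 pan-leukocyte markers were. The dendritic, mast and basophil, stromal and endothelial, and erythroid lists had 1 of 2, 1 of 9, 3 of 5 and 0 of 3. The pan-leukocyte list had a median log2 difference of 0.79 and summed to 685 CPM in DSS against 390 CPM in normal crypts. Some genes of the neutrophil list, such as Mmp8, Mmp9, Il1r2 and Fpr1, also stand in the granule or receptor lists above, so these lists are not separate. Cd177, listed as a neutrophil surface marker and the most abundant gene of that list at 285 CPM, also lay mostly outside cluster 15, with 95 of its 9221 DSS UMIs there and 4145 in cluster 4, where Ly6g had 25 UMIs. It had 1706 UMIs (85.7 CPM) in normal crypts. Mxd1 was at least 2-fold lower (119 against 283 CPM). Outside the rule for named genes, Mmp8, Mmp9, Fpr1, Il17a, Csf3, Tlr4, S100a4, Nlrp3 and Il1a were named after their values were seen.

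Across the 19 DSS clusters of at least 20 cells, the genes whose log2(CPM + 1) was most like that of the summed members (11504 genes of at least 50 UMIs ranked by Pearson r, given as a description over points that share a library) were Wfdc21 (r = 0.955), Clec5a (0.944), Mcemp1 (0.925), Clec4e (0.921), Igsf6 (0.912), Cd33 (0.912), Alox5ap (0.904), Ifitm6 (0.900), Trem3 (0.896) and Hp (0.893). Of these 10 genes, 9 had 0 UMIs in normal crypts and Alox5ap, a partner of leukotriene synthesis, had 99. Cluster 15 held 80.3% and cluster 22 16.2% of the Wfdc21 UMIs. Clec5a and Trem3, myeloid surface receptors, stood at similar CPM in both clusters (191 and 189.6 for Clec5a, 182 and 207 for Trem3), whereas Clec4e, a sensor of mycobacterial glycolipid, was at 3398 in cluster 15 and 207 in cluster 22.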

How the data were processed

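Single-cell 3′ RNA-seq of 10 libraries was used. The authors aligned the reads to mm10 with Cell Ranger (3.0.0 in the submitters' processing notes), analysed them with Seurat 3.1.4 and deposited UMI counts per gene and cell, with a cluster or cell class for each kept cell. Per the methods, which describe 8 single-cell samples, cells needed 1500 genes or more and a mitochondrial share of up to 25%. Kept cells below 1500 genes are in the deposited table, so both sets were computed. Kept cells of the DSS library had at least 501 genes and up to 20.0% mitochondrial UMIs. Those of the normal library had at least 548 genes and up to 20% mitochondrial UMIs. The kept cells number 25204 over all libraries, and 0 columns could not be mapped to a sample.

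Counts were summed per library and cluster and expressed as CPM, with exact Poisson and Clopper-Pearson 95% intervals. Genes with at least 10 UMIs in both colonic libraries together were compared as log2(CPM + 1) and called at 2-fold. With 1 library per colonic group no test was run. Leukocyte-rich clusters are those with Ptprc in at least 50% of cells. For the shares of cells given at 1000 UMIs, each cell was thinned to that depth with a fixed seed. Other shares of cells were taken at full depth. No doublet caller was run, and an alternative left out the 5% of cells with the most UMIs. The code was tested on simulated data. Python 3.11.15, numpy 2.4.6, pandas 2.3.3, scipy 1.17.1, matplotlib 3.10.9, R 4.3.3 and edgeR 4.0.16 (TMM factors as an alternative scaling) were used.

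The 8 members and the gene lists were chosen with earlier results of these data known. Genes named are the members, in each list up to 4 with the highest DSS CPM and any at 0, and the 10 genes most like the summed members across DSS clusters of at least 20 cells.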

Additional observations from a re-analysis of the deposited data

Results flagged for a closer look

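Signals of 7 of the 8 members appeared in barcodes of the DSS library that the authors did not keep, which enter the results above only where all barcodes are named, at a level above the same kind of barcode in the normal library. Of 2813 such barcodes, 55 (1.96%, 1.48 to 2.54) held at least 3 members, against 0 of 2495 in the normal library. S100a8 stood at 149 CPM, S100a9 at 208 CPM and Retnlg at 38.6 CPM in them, and each had 0 UMIs in the normal barcodes that were not kept. Il1b was at 28.2 CPM and Csf3r at 1.92 CPM, both with 0 UMIs in those normal barcodes. Cxcr2 was at 1.12 CPM and Hdc at 3.24 CPM, with 1 and 3 UMIs in them. Ly6g went the other way, at 54.5 CPM in DSS and 73.2 CPM in normal barcodes that were not kept. Of the 55 barcodes, 37 had over 20% mitochondrial UMIs and 8 held Ptprc. Their part in the results above was not tested beyond the counts with all barcodes given below.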

How the results depend on the processing

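No paired analysis was possible because each colonic group is 1 library, and for the same reason no replicate could be left out. The summed members were at 2714 CPM in DSS kept cells, at 2004 CPM over all barcodes, at 762.8 CPM in the 1400 cells with at least 1500 genes and at 3210.05 CPM without the 5% of cells with the most UMIs. The share in cluster 15 was 81.6%, and 75.3% over all barcodes, 40.5% with at least 1500 genes, which keeps 3 of its cells, and 81.3% without S100a8 and S100a9. In settings chosen after seeing the data it was 76.9% without the 5 granule-rich cells and 91.8% without the 2 deepest cells of cluster 22. The share without Ptprc was 35.2%, and 36.9% over all barcodes, 32.6% with at least 1500 genes, 2.36% by 10 pan-leukocyte genes, 59.6% with fewer than 2 Ptprc UMIs allowed, 34.3% without S100a8 and S100a9 and, in settings chosen after seeing the data, 34.2% without Ly6g and 32.4% without the 2 deepest cells. Cells with at least 3 members numbered 115, and 33 with at least 1500 genes, while 288 held at least 2. The share of cells with any member was 26.1% in leukocyte-rich and 9.13% in other clusters at 1000 UMIs (8.91%, 6.18 to 12.4, in leukocyte-rich clusters without 15 and 21), 32.4% and 12.1% at 2000 UMIs, and 42.0% and 44.4% before thinning, where the order turned. Genes at least 2-fold higher numbered 442 (190 lower), 1156 with a pseudocount of 0.1 CPM (440 lower) and 93 with 10 CPM (85 lower), which took the higher share of calls from 69.9% to 52.2%. With 10 CPM, Csf3r (0.69) and Cxcr2 (0.25) fell under 2-fold, and the other 30 combinations of member and setting kept their side. The Ly6g ratio of 1.75 was 1.06 over all barcodes, 1.70 with at least 1500 genes and 1.59 without the 5% of cells with the most UMIs, all chosen after seeing the data. The cause of these shifts was not tested. The 9 remaining values moved less than their interval or 1.5 times.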
